A study of Mus musculus with 2 samples.

Results

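Mir205, Mir203, Mir31, Mir708 and the 3 genes of the Mir183 cluster (Mir183, Mir96 and Mir182) are miRNA genes known for their expression in epithelia outside the miR-200 family. They were picked by gene symbol and not by level, though with earlier results of these data known. They are 7 of the 1973 miRNA genes in the count tables. Small RNA was profiled by microRNA-seq, in 2 libraries, from total RNA of the bladder of newborn mice of the strain B6NCrl at postnatal day 0, with RNA of under 30 nucleotides and no treatment named in the labels. Each library holds the RNA of a single bladder, and both pups (pup 1 and pup 2) come from the same litter, with sex not recorded, so there is 1 group and no contrast between conditions. Levels are sense-strand counts per 1000000 sense-strand gene counts (CPM). Pup 1 had 7460621 such counts and pup 2 had 3636650. A count of 0 would allow levels of up to 0.402 and 0.825 CPM in these libraries. These limits, and every interval given here, cover the counting error of reads only and treat reads as independent. PCR reads without molecular identifiers are not independent molecules, so the limits and intervals can be too narrow even for counting. Values after ± are SDs between the pups (n = 2) and say nothing of other litters.

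A miRNA is cut from a hairpin in a longer primary transcript, and its mature strand guides the repression of messenger RNAs that pair with the seed, the bases near its 5′ end. The urothelium that lines the bladder is a stratified epithelium on a wall of smooth muscle and connective tissue. Mir205 is known from the basal layers of stratified epithelia and, with the miR-200 family, for repressing Zeb1 and Zeb2, and Mir203 is known for promoting the differentiation of skin keratinocytes by repressing p63. The Mir183 cluster is transcribed as 1 primary transcript and is also known from the sensory cells of the eye and ear. In RNA from a whole organ, more cells of a type and more of a miRNA per cell cannot be told apart, and the cells that made these miRNAs were not identified.

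The mature strands that these genes are known for are shown to make their relations visible, since the seed decides which genes share targets. All 7 genes matched the RefSeq table (GRCm38.p6) by symbol. Sequences run 5′ to 3′, and capitals mark the seed, bases 2 to 8.
miR-205-5p: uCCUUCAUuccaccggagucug
miR-203-3p: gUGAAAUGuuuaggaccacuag
miR-31-5p: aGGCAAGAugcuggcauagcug
miR-708-5p: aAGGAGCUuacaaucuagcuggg
miR-183-5p: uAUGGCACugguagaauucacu
miR-96-5p: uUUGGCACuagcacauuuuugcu
miR-182-5p: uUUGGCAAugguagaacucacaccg
The cluster's seeds are close but not equal. Counted from the 5′ end, miR-96-5p and miR-182-5p share bases 2 to 7 and differ by C8A, while miR-96-5p and miR-183-5p differ within the seed by U2A. Over the whole length the closest pair is another one, miR-182-5p and miR-183-5p, with 18 of 22 positions identical without gaps, against 13 of 22 for miR-96-5p and miR-183-5p and 12 of 23 for miR-96-5p and miR-182-5p. No seed is shared between the 4 members outside the cluster, or between any of them and the cluster. The counts are per gene and do not separate the strands of a hairpin, so each level below is the sum over both mature products.

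The 7 genes lie at 5 separate places in the genome (GRCm38, GENCODE M21). Mir205 (ENSMUSG00000065533.1) is on chromosome 1 at 193507463 to 193507530, minus strand, and overlaps an exon of the non-coding gene 4631405K08Rik, which RefSeq calls Mir205hg. Mir203 (ENSMUSG00000065574.1) is on chromosome 12 at 112130880 to 112130955, plus strand, in no annotated host gene and 3321 bases from the protein-coding gene Aspg. Mir31 (ENSMUSG00000065408.1) is on chromosome 4 at 88910557 to 88910662, minus strand, and overlaps an exon of the non-coding gene AL805899.1. Mir708 (ENSMUSG00000076143.1) is on chromosome 7 at 96249424 to 96249532, plus strand, in an intron of Tenm4, a gene for a teneurin membrane protein, in each of the 7 annotated transcripts of Tenm4 that span it. The Mir183 cluster takes up 3820 bases of chromosome 6, minus strand, between Nrf1 and Ube2h and inside neither. In the direction of transcription it runs from Mir183 (ENSMUSG00000065619.2, 30169668 to 30169737) over Mir96 (ENSMUSG00000065586.1, 30169446 to 30169551) to Mir182 (ENSMUSG00000076361.1, 30165918 to 30165992). Mir183 and Mir96 are 116 bases apart, and Mir96 and Mir182 are 3453 bases apart.

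All 7 genes were well above the detection limit in both pups, and together they made up 1.03% of sense-strand gene counts. Their summed level was 10338 CPM in pup 1 and 10342 CPM in pup 2, or 10340.1 ± 2.58 CPM. In CPM the sums were thus nearly equal although the single genes moved by more, but this depends on the scaling. With the TMM scaling of the tests below, the sum was higher in pup 2 by 0.024 on the log2 scale (counting SE 0.0091). The most abundant member, Mir205, was 7.79 ± 0.12-fold above the least abundant, Mir31. By mean level the members held ranks 28 to 98 among the 1973 genes, of which 668 had any sense-strand count. Since the members' mature products are 21 to 25 bases long and a read covers 1 product, levels were compared between genes without dividing by length. How well each product was captured in the library was not measured. Comparisons of level between genes, here and below, therefore describe counts and not molecules.

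Mir205 reached 3284 CPM in the library of pup 1 and 3568 CPM in that of pup 2, a mean of 3426 ± 200.7 CPM. Mir203 followed at 3247 and 3106 CPM, or 3176.5 ± 99.9 CPM. The gap of 249.4 CPM between these means was smaller than their SDs added together, 300.6 CPM: Mir205 counts were 1.01 times those of Mir203 in pup 1 and 1.15 times in pup 2. The order of the leading pair therefore does not stand out from the spread between the pups.

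Mir182, the most abundant gene of the cluster, had values of 1573 and 1490.4 CPM for pups 1 and 2 (1531.9 ± 58.7 CPM), and Mir203 counts were 2.07 ± 0.014-fold higher. Mir183 came next at 769.0 and 726.2 CPM (747.6 ± 30.2 CPM). Neither gene's values overlapped those of the member above or below it. Mir708 had 560.3 and 560.4 CPM (560.3 ± 0.092 CPM), a difference far below its counting error, as the exact 95% Poisson interval of pup 2 reached from 536.3 to 585.3 CPM. Mir96 was at 478.0 and 438.0 CPM (458.0 ± 28.2 CPM), and Mir31, a miRNA of keratinocytes among other cells, at 426.5 and 453.2 CPM (439.8 ± 18.9 CPM). Mir96 and Mir31 changed places between the pups, with Mir96 counts 1.12 times those of Mir31 in pup 1 and 0.967 times in pup 2, so these neighbours are not ordered.

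**Figure D1:**
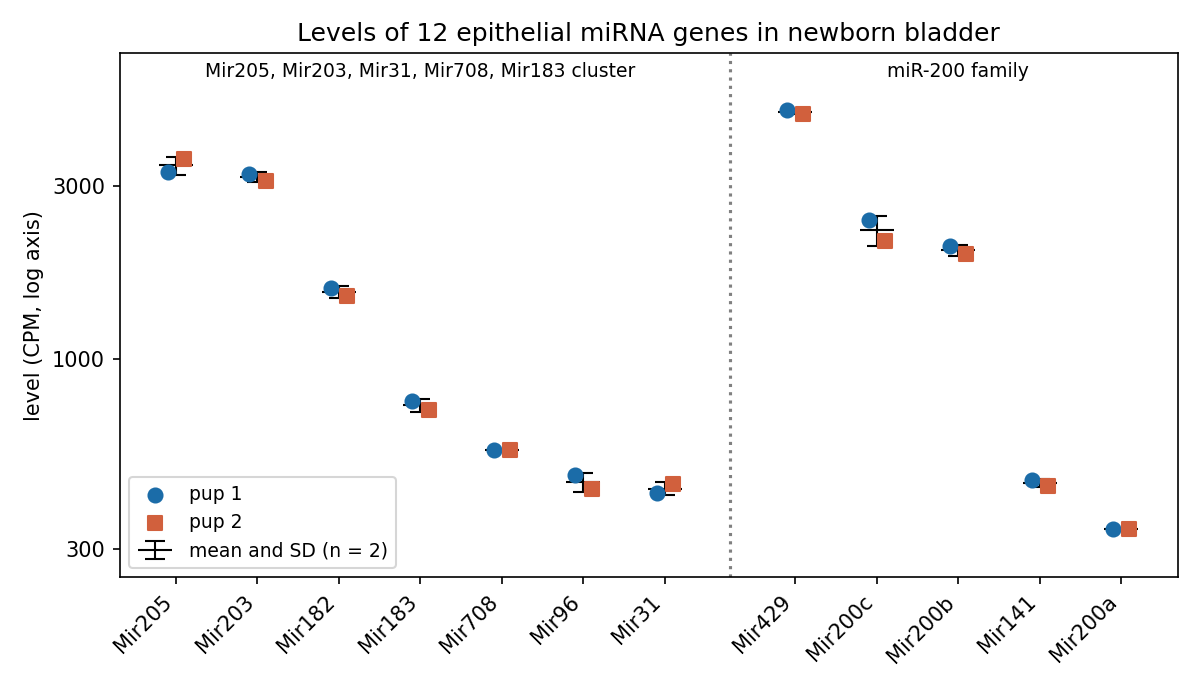
Level in CPM (log axis) of the 7 members and of the 5 miR-200 family genes, with a point for each pup and the mean and SD (n = 2) in black. Mir205 and Mir203 have means of 3426 and 3176.5 CPM, and Mir96 and Mir31 of 458.0 and 439.8 CPM with their order exchanged between the pups, and the miR-200 genes cover the same range and somewhat beyond.

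The genes of the Mir183 cluster kept the same proportions in both pups. Mir182 held 55.8% of the cluster's counts in pup 1 (exact 95% binomial interval 55.1% to 56.5%, 21041 cluster counts) and 56.1% in pup 2 (55.1% to 57.1%, 9654 cluster counts). Mir183 held 27.3% (26.7% to 27.9%) and 27.4% (26.5% to 28.3%). Mir96 held 16.9% (16.4% to 17.5%) and 16.5% (15.8% to 17.3%). For each gene the interval of 1 pup overlapped that of the other, and the means were 56.0% ± 0.25, 27.3% ± 0.064 and 16.7% ± 0.32. The levels did not follow the order along the transcript: the last gene, Mir182, had the most counts and the middle gene, Mir96, the fewest. Mir182 counts were 2.05 ± 0.0044-fold those of Mir183. How well each product was captured in the library was not measured, so these proportions describe counts and not molecules.

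**Figure D2:**
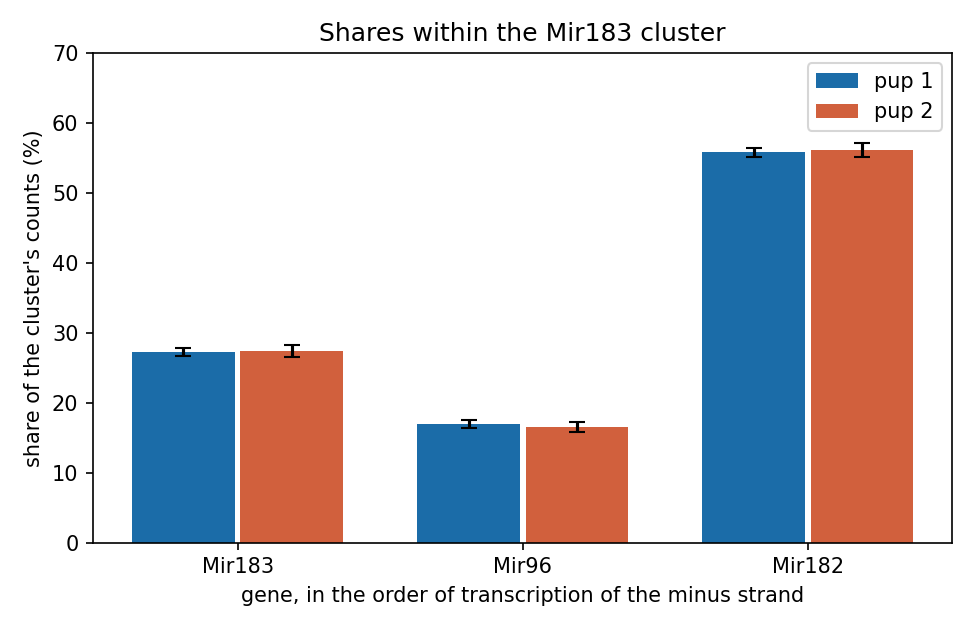
Share of the Mir183 cluster's sense-strand counts held by each of its 3 genes, in percent, for pup 1 and pup 2, with exact 95% binomial intervals. The bars of the pups are level for each gene, with means of 27.3% for Mir183, 16.7% for Mir96 and 56.0% for Mir182.

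Among 1738 mature mouse sequences in the RefSeq table, few share a seed with the members' main strands. The seeds of miR-205-5p, miR-203-3p, miR-31-5p, miR-183-5p and miR-182-5p were found in no other entry. The seed of miR-96-5p recurs in miR-1271-5p (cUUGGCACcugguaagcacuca), and that of miR-708-5p in miR-28a-5p. Gm24195, the gene that holds miR-1271-5p, had 0 counts in both pups. Reads that map to several places are left out of gene counts, and Gm24195 was not searched for runs shared with other genes. Its count of 0 therefore does not show that miR-1271-5p was absent. Mir182 and Mir96, the other genes whose main strand has UUGGCA at bases 2 to 7, summed to 1989.9 ± 86.9 CPM with both strands of their hairpins included. miR-28a-5p is shown because its gene outnumbered the member with that seed.
miR-28a-5p: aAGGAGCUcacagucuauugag
Mir28a had 2287 CPM in pup 1 against 1865 in pup 2 (2075.7 ± 298.5 CPM), and Mir708 counts were 0.245 and 0.301 times those of Mir28a. Mir28a and Mir708, both strands of their hairpins included, summed to 2636 ± 298.4 CPM. The Mir708 to Mir28a ratio was higher in pup 2 by 0.29 on the log2 scale (95% counting interval 0.21 to 0.38). Reads of Mir708 can be missing from its counts, as given below, and Mir28a was not searched for shared runs. The ratios of these genes can therefore be off, which the interval does not cover.

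Reads that mapped to several places were kept apart from the genes by the authors and were 22.7% of all reads in pup 1 and 24.8% in pup 2. Each mature strand of the members was therefore searched for in 2202 annotated miRNA transcripts on both strands. For 6 of the genes the longest run shared with another miRNA gene was 9 to 14 bases, which leaves their reads distinct among annotated miRNAs. For miR-708-5p it was 22 of its 23 bases, shared with Gm23134, a predicted miRNA gene with 5 sense-strand counts in pup 1 and 0 in pup 2. The shared run is bases 2 to 23, so reads of Mir708 that lack the first base match both genes and can be missing from its counts. Matches elsewhere in the genome were not searched for.

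The miR-200 family, the textbook miRNAs of epithelial identity, lies at 2 places in the genome. It was chosen for comparison for that known role, but with earlier results of these data known. Its 5 genes were all detected, with sums of 10152.5 and 9610 CPM for pups 1 and 2 (9881 ± 383.7 CPM). The 7 members summed to 1.02 times the family in pup 1 and 1.08 times in pup 2 (1.047 ± 0.041). The interval of the change in that ratio, 0.054 to 0.11 on the log2 scale, did not include 0, but it allows for counting error alone. Mir429 (4817 ± 79.9 CPM) lay above every member in both pups. Mir200c (2271 ± 221.3 CPM) and Mir200b (1997.7 ± 70.8 CPM) lay between Mir203 and Mir182, and Mir141 (455.5 ± 11.5 CPM) lay between Mir96 and Mir31. Mir200a was at 339.4 ± 0.14 CPM, below every member.

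The libraries of the littermates were compared gene by gene by an exact binomial test (two-sided, conditional on each gene's total), with Benjamini-Hochberg adjustment across 362 genes whose counts in both libraries came to at least 10. With 1 library for each pup this compares libraries against counting noise and tests no condition. Mir205 was higher in pup 2 (log2 ratio 0.14, counting SE 0.016, adjusted p = 9.1e-19 by the exact test), and so was Mir31 (0.11, SE 0.044, adjusted p = 0.037). Mir203 was lower in pup 2 (-0.040, SE 0.016, adjusted p = 0.045). Mir96, Mir182, Mir183 and Mir708 did not pass, and their log2 ratios were -0.10, -0.054, -0.059 and 0.024. That is 3 of 7 members, beside 32.3% of all tested genes (19.1% higher in pup 2 and 13.3% higher in pup 1) and 58.4% of the 161 tested genes with at least 1000 counts summed, a depth that every member exceeded. With this scaling the share among the members lay below that of genes of similar depth, and with DESeq2 size factors, at 5 of 7, it lay above the 62.1% of those genes, so no share particular to the members is shown.

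The largest of these differences, that of Mir205, was 1.10-fold. The median absolute log2 ratio of the members was 0.059, beside 0.16 over all tested genes and 0.11 over those with at least 1000 counts. Mir205 alone lay clearly above the latter value, and Mir31 lay at it. The spread between the pups beyond counting corresponded to a coefficient of variation of 13.2% (square root of edgeR's common dispersion over the 362 genes). The calls moved with the scaling of the libraries. With DESeq2 size factors, where 34.5% of all tested genes passed, 5 members did, Mir205 higher in pup 2 and Mir203, Mir182, Mir183 and Mir96 lower, while Mir31 did not (adjusted p = 0.19). Over all tested genes the split was 69 higher and 48 lower in pup 2 with the TMM scaling used here, 56 and 69 with DESeq2 size factors, and 59 and 64 with total counts. Mir205 and Mir31 had positive ratios, and Mir203 and the 3 cluster genes negative ones, under every scaling run, but the sign of Mir708 changed.

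**Figure D3:**
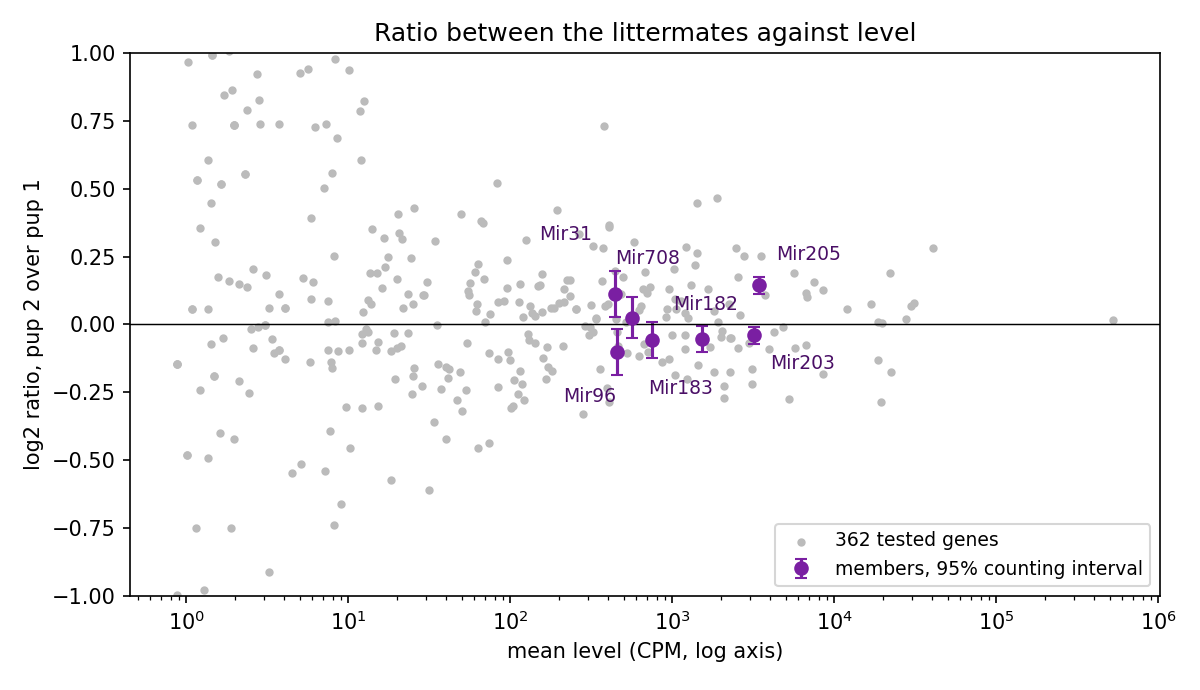
Log2 ratio of pup 2 over pup 1 against mean level (CPM, log axis) for the tested genes in grey and the 7 members in purple, with 95% counting intervals; 25 tested genes lie outside the plotted range. The members lie between -0.10 and 0.14, inside the band of other genes of the same level.

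Ratios between members within a library do not depend on how the libraries are scaled, so each of the 21 pairs was followed from pup 1 to pup 2. All 3 pairs inside the Mir183 cluster changed by at most 0.048 on the log2 scale, with counting intervals that included 0. Of the 18 other pairs, 10 had an interval that did not include 0. The largest change was that of Mir205 over Mir96, from 6.87 to 8.15 (log2 change 0.25, interval 0.15 to 0.34). Mir205 over Mir203 changed by 0.18 (0.14 to 0.23) and Mir205 over Mir182 by 0.20 (0.14 to 0.25). Mir205 over Mir31 went from 7.70 to 7.87, a change of 0.032 whose interval (-0.059 to 0.12) included 0. Mir203 over Mir182 went from 2.06 to 2.08 (0.014, -0.043 to 0.070). Relative to the cluster, Mir205 and Mir31 were thus higher in pup 2, while Mir203 stayed within counting error of each cluster gene. In the miR-200 family, the 3 pairs at the chromosome 4 place also had intervals that included 0, but neighbours on chromosome 6 kept their ratio less well than counting error allows: Mir200c over Mir141 fell from 5.24 to 4.73 (log2 change -0.15, interval -0.24 to -0.054). The pairs share genes and are not separate observations.

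**Figure D4:**
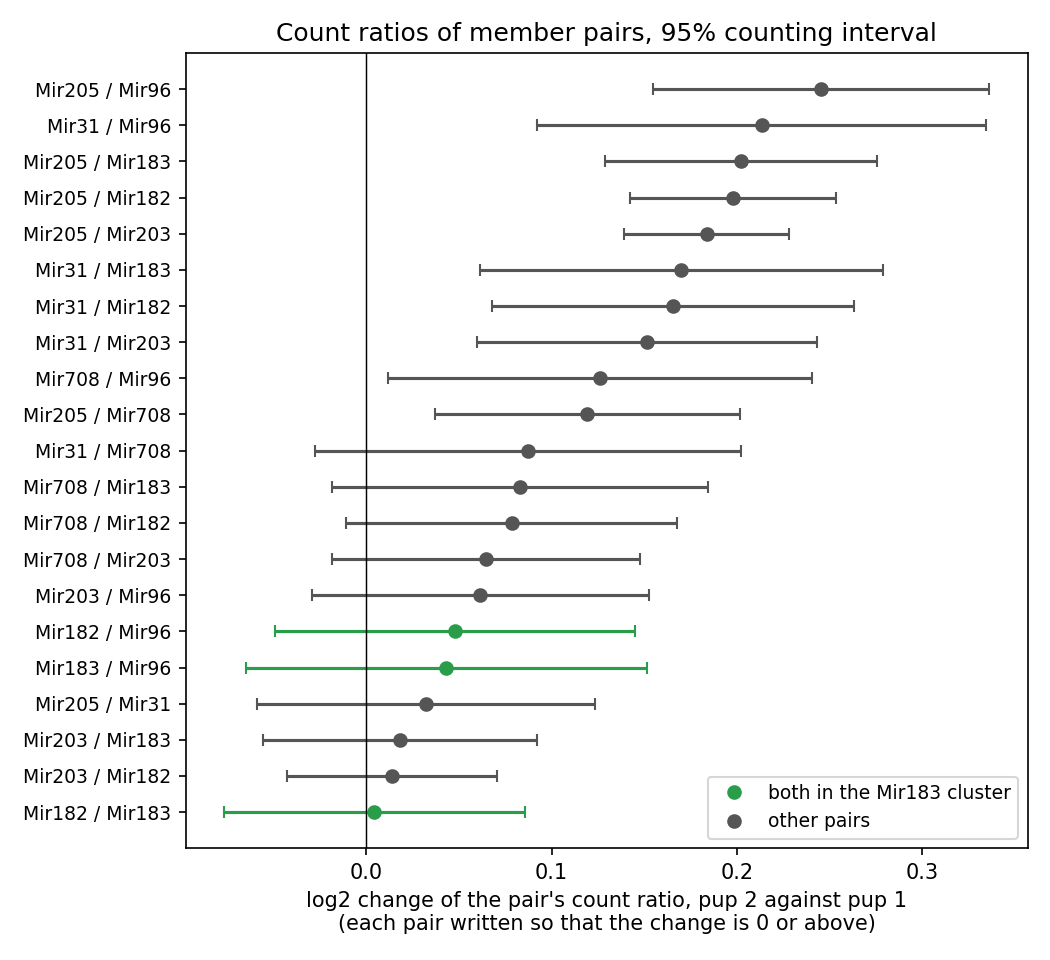
Log2 change of the count ratio of each of the 21 member pairs between the pups, with 95% counting intervals, each pair written so that its change is 0 or above. Pairs inside the Mir183 cluster (green) lie at 0.048 or below, and the pairs of Mir205 or Mir31 with Mir96, Mir183, Mir182 or Mir203 lie highest.

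Markers of other cell types in the bladder were measured in the same libraries. Smooth muscle markers (2 of 2 detected) summed to 53.8% and 53.5% of counts in pups 1 and 2, and mesenchymal markers (4 of 4 detected) to 4382 and 4091 CPM. Mir214 alone gave 4112 and 3797 CPM of the mesenchymal sum. Mir199b (211.6 and 232.9 CPM) and Mir199a-2 (53.9 and 57.2 CPM) went the other way, and Mir199a-1 had 4.29 and 3.85 CPM. White blood cell markers (3 of 4 measured ones detected, Mir142b at 0 on the sense strand) came to 502.6 CPM in pup 1 against 1376.5 CPM in pup 2. Among the genes summed, Mir223 alone carried that difference (396.2 and 1274 CPM), while Mir155 had 77.3 and 70.7 CPM and Mir150 had 29.1 and 31.9 CPM. Mir142 was also on the marker list but was not among the measured genes. Opposite-strand counts at Mir142b, which the sum leaves out, were 5962 and 6605, and the RNA they come from was not tested. The libraries held 7460621 and 3636650 sense-strand gene counts, so relative to depth these counts too were higher in pup 2. Red cell markers (3 of 3) summed to 698.5 and 980.3 CPM. Neuron markers (3 of 9 measured ones detected, 5 at 0) summed to 70.9 and 75.9 CPM, in counts below every single member. The 5 at 0 were copies of Mir124a and Mir9. Reads that map to several places are left out of these counts, and the markers were not searched for shared runs. Marker levels can therefore be too low, and a count of 0 here does not show that a miRNA was absent. Mir375 of endocrine cells had 24.4 and 72.3 CPM, and Mir122 of liver had 111.8 and 31.6 CPM. Mir223, the red cell sum and Mir375 were thus higher in pup 2, and Mir122 was lower. Mir205 and Mir31 also had higher CPM in pup 2, though Mir31 passed the exact test only with the TMM scaling used here. The part of these markers in the members' ratios was not tested.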

How the data were processed

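The authors deposited 1 table of whole-number counts per annotated miRNA gene for each library, not normalized. Per the labels, reads were assigned to mm10, and per the text deposited with the tables, to GENCODE M4. The aligner and counter were not given in the sources used here. Columns have no names, so their strands were inferred: in all 1973 genes the first count column was the sum of the others, and the second was taken as sense. The 4 lines of reads in no gene (34.1% and 35.2% of reads in pups 1 and 2) were left out. Symbols and positions came from GENCODE M21 by Ensembl gene number (1894 IDs matched, 79 did not) and sequences from RefSeq.

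Pups are numbered as in the labels. Library sizes were scaled by TMM on the 362 genes tested (edgeR 4.0.16, R 4.3.3). The exact binomial test used a prior count of 0.5 for log2 ratios and a threshold of 0.05. It was tested on simulated data with counting noise alone, where 31 of 50 genes changed 1.25-fold and 7 of 169 unchanged genes passed. Smaller changes and spread beyond counting were not simulated there. The simulation therefore does not bear on the members' differences, the largest of which was 1.10-fold. The quasi-likelihood test could not be fitted, since no residual degree of freedom is left between the pups. Further steps used Python 3.11.15 with scipy 1.17.1, pandas 2.3.3, numpy 2.4.6 and matplotlib 3.10.9. Alternatives were DESeq2 1.42.0 size factors, total counts, other count minimums and prior counts, both strands, all reads as denominator, a 2-fold minimum, edgeR's exact test and each pup left out.

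The members and lists were chosen with earlier results of these data known. Named genes were the members, the miR-200 family, genes sharing a member's seed, the cell type markers and, for each member, the 2 genes closest in level. Ratios between members were added after the levels had been seen, and so were the TMM factors from all genes with a count and the Gm23134 counts added to Mir708.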

Additional observations from a re-analysis of the deposited data

Results flagged for a closer look

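Counts on the strand opposite to the members, which no level uses, exceeded the 3 counts that a count of 0 allows at 2 genes. Mir203 had 12 opposite-strand counts in pup 1 and 2 in pup 2, or 0.050% and 0.018% of its counts. RefSeq places another hairpin with the products miR-203b-3p (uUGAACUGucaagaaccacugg) and miR-203b-5p (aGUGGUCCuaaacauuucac) on that strand, which has no row of its own here. Mir708 had 7 such counts in pup 1 and 1 in pup 2, or 0.17% and 0.049%. Over all genes the opposite strand held 3.17% of gene counts in pup 1 and 3.18% in pup 2. Both members lie below that share, but it is a total over genes that differ widely. At Mir142b 100% of counts were on the opposite strand, while the 5 miR-200 genes and 3 of the members had 0 there. Beside those genes, Mir203 and Mir708 lie above and not below. Whether these counts come from RNA of that strand was not tested.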

How the results depend on the processing

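With counts of both strands the summed level of the members was 10013.3 ± 0.374 CPM, and per 1000000 of all reads it was 6758 ± 75.9. Leaving out each pup in turn gave 10338 to 10342 CPM for that sum, 55.8% to 56.1% for the share of Mir182 in its cluster and 1.02 to 1.08 for the ratio of members to the miR-200 family. The coefficient of variation was 13.2% with no count filter, 12.5% at a minimum of 100 counts and 13.1% with total count scaling. The number of members that differed between the pups was 5 with DESeq2 size factors, total counts, no filter, a minimum of 100 counts, or TMM factors from all genes with a count (chosen after seeing the data), in each case Mir205, Mir203 and the 3 cluster genes. Of all tested genes, 34.5%, 34%, 17.7%, 48.8% and 34% passed under these settings, and of those with at least 1000 counts 58.4% to 63.4%. It was 4 in counts of both strands, where 33.6% of tested genes passed. The cause was not tested. With a 2-fold minimum 0 members and 10 genes (2.76%) passed. With edgeR's exact test and the common dispersion 0 members (0 at an unadjusted p under 0.05) and 5 genes (1.38%) passed, but that dispersion comes from the same pair of libraries, so this says nothing of the size of a difference. The log2 ratio of Mir708 was -0.0096 with DESeq2 size factors and -0.038 with TMM factors from all genes with a count. Mir31 passed the exact binomial test only with sense-strand counts and the TMM factors used here, where the prior count does not enter the p-value. It did not pass with both strands, total counts, DESeq2 size factors or TMM factors from all genes with a count. Nor did it pass with no filter, a minimum of 100 counts, a 2-fold minimum or edgeR's exact test. Its log2 ratio ranged from 0.049 to 0.11 over the alternatives. Adding the counts of Gm23134 to Mir708, also chosen after seeing the data, gave 560.7 CPM. No paired analysis was possible because there is 1 group, and leaving out a pup leaves no comparison between pups. Depth limits the ratio of the least abundant member, Mir31, to a counting SE of 0.044.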

Other observations

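The genes closest in level to each member, by the larger of its log2(CPM + 1) differences over the 2 libraries, come from many genomic places. They were Mir17 (difference 0.082) and Mir30a (0.15) for Mir205, Mir744 (0.091) and Mir98 (0.10) for Mir203, and Mir296 (0.15) and Mir125a (0.18) for Mir182. For Mir183 they were Mir342 (0.034) and Mir337 (0.094), for Mir708 Mir149 (0.13) and Mir1193 (0.16), and for Mir31 Mir125b-2 (0.043) and Mir27a (0.083). For Mir96 they were Mir188 (0.033) and Mir141 (0.044), the only one of these 14 that belongs to the miR-200 family. With 2 libraries this is a likeness of level alone.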
